A study of Mus musculus with 18 samples.

Results

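Stra8, Rec8, Dazl, Sycp1, Sycp3, Ddx4, Mael and Dppa3 are 8 mouse genes best known from germ cells and meiosis. Their expression was followed here as HBG3 cells, a mouse ES cell line, became motor neurons in culture. They were taken by symbol, as every probe set that carries only that gene symbol, and stand for 8 of the 18193 genes measured. All 8 had at least 1 such probe set and 9 probe sets were found in all. RNA was amplified and read on whole-genome Affymetrix arrays, of which 18 were used. The 2 arrays of embryoid bodies exposed to retinoic acid (RA) for 8 h after day 2 (replicates 1 and 3) are set against 4 arrays of embryoid bodies at day 2 without it. The other groups are ES cells at day 0, grown in serum and LIF and expanded on feeder cells, and cells at day 3, day 4 and day 7, with 3 arrays each (replicates 3, 4 and 5 at day 7). Embryoid bodies were formed on day 0, and RA with an agonist of hedgehog signaling was added on day 2, so that cells at day 3, day 4 and day 7 had met both. For the 8 h arrays only RA is named in the labels. All groups come from 1 cell line, and no array holds embryoid bodies kept 8 h longer without RA. An effect of RA therefore cannot be told apart from that of the hedgehog agonist, if it was present, or of 8 h of further culture.

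In the gonad, RA is the signal that starts meiosis. Stra8 (stimulated by retinoic acid 8) encodes the factor that germ cells need to begin it, and Rec8 encodes the kleisin subunit of the cohesin that holds sister chromatids together in meiosis. Sycp1 builds the transverse filaments of the synaptonemal complex, and Sycp3 its lateral elements. Dazl and Ddx4 encode germ cell RNA-binding proteins, an RNA-binding translation factor and an RNA helicase. Mael encodes a protein of the piRNA pathway, which silences transposons. Dppa3 (also known as Stella) encodes a maternal factor that marks primordial germ cells and is also expressed in naive ES cells.

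Several of these genes have CpG-rich promoters that are methylated in somatic cells, and a repressor complex that reads E-box and E2F motifs is known to hold germline genes silent in ES cells. The promoters of 5 of the genes are shown for that reason, as 250 bases before and 50 after the annotated start site (RefSeq, GRCm38.p6). This start is not always the outer end of the gene. For Stra8, Rec8 and Ddx4 it lies inside the annotated gene. The Stra8 gene begins at chr6:34920163 and the Ddx4 gene, on the minus strand, at chr13:112652633. The whole windows of Stra8 and Ddx4 therefore lie inside their genes. Stra8 and Rec8 are the genes that were higher after RA, and Sycp1, Ddx4 and Mael are genes that were lower at later stages. Windows were found for 7 of the 8 genes, and those of Dazl and Sycp3 are not printed. The window of Dazl, also lower at later stages, held neither an E-box nor an E2F site. That of Sycp3, which was called in no comparison, held both. A link between these motifs and the falls was not tested. The capitals mark the RAR half-site (AGGTCA, or the spelling GGGTCA, or the spelling AGTTCA, or the spelling GGTTCA), the E-box CACGTG and the E2F site TCCCGC, each searched on both strands. The E-box reads the same on both strands, and the reverse complement of the E2F site is GCGGGA. The windows lie at chr6:34920698-34920997, plus strand (Stra8), at chr14:55617916-55618215, plus strand (Rec8), at chr3:102936051-102936350, minus strand (Sycp1), at chr13:112652261-112652560, minus strand (Ddx4) and at chr1:166238695-166238994, minus strand (Mael), and each sequence is written along its gene's strand.
Stra8: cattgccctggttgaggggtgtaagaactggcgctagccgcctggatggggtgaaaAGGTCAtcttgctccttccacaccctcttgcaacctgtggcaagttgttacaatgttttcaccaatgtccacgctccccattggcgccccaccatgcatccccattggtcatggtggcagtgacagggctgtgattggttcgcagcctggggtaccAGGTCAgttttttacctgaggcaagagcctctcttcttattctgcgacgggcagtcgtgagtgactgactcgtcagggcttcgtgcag
Rec8: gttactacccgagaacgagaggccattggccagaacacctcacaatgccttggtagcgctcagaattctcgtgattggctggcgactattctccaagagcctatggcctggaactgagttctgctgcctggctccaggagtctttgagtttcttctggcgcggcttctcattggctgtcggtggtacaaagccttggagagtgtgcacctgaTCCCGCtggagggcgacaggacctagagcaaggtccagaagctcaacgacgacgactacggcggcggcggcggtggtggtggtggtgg
Sycp1: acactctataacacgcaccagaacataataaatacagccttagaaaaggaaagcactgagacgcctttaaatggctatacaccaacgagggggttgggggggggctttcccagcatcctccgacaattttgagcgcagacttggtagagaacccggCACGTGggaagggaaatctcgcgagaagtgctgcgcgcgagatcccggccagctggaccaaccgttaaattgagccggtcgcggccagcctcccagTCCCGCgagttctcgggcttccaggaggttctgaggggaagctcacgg
Ddx4: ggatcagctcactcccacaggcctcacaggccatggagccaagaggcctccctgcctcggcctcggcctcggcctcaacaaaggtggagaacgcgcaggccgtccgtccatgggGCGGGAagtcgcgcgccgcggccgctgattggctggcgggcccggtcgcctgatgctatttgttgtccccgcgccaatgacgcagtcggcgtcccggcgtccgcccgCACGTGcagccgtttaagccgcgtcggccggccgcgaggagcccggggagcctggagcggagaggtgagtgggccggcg
Mael: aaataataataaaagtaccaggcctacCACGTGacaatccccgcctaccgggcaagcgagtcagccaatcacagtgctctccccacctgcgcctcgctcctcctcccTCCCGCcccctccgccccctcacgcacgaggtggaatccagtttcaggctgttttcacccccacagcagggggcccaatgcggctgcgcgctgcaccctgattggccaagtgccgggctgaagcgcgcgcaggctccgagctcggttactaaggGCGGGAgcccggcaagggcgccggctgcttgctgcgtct

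An E-box was found in 4 of the 7 windows, those of Sycp1, Sycp3, Ddx4 and Mael, against 7.15% of the 32851 promoter windows in the table. The same 4 windows also held an E2F site, a pair present in 1.99% of all windows. The windows of these 4 genes held 15 CpGs or more, a cut set by the lowest count among them. Among the 11378 windows with at least 15 CpGs, the share with both motifs was 5.04% and with an E-box 11.3%. Rec8 carried an E2F site and no E-box, so that an E2F site was found in 5 of 7 windows against 20% of all. For the E2F site alone, no share among CpG-rich windows is given. Stra8 carried 2 copies of the half-site AGGTCA, at -194 and -38 relative to the start used for its window, which lies inside the annotated gene. At least 2 half-sites of any of the 4 spellings were held by 13.1% of all windows. No window held half-sites as direct repeats spaced by 1, 2 or 5 bases, arrangements seen in 0.222%, 0.268% and 0.0974% of all windows. Dazl had none of these letters in its window. The windows held 10 CpGs in Stra8, 18 in Rec8, 28 in Dazl, 21 in Sycp1, 15 in Sycp3, 38 in Ddx4 and 24 in Mael, against a median of 7 over all windows. These matches are descriptions of letters and not of binding, and the arrays carry no measure of binding.

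**Figure D1:**
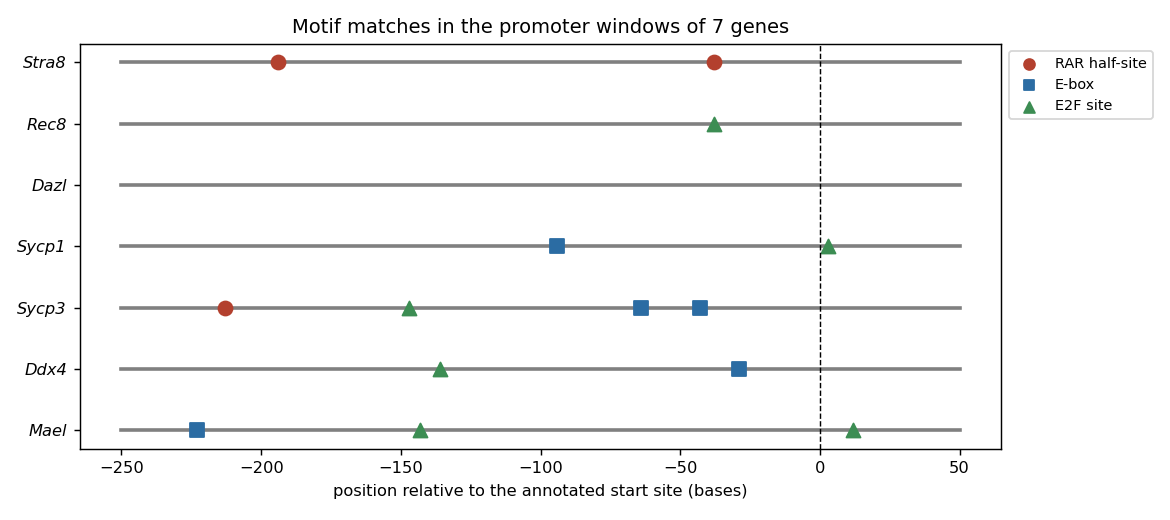
Motif matches in the promoter windows of 7 genes. The horizontal axis is the position in bases relative to the annotated start site (dashed line), each grey bar is a window of 300 bases, and symbols mark the first base of each match on the gene's strand. The windows of Sycp1, Sycp3, Ddx4 and Mael hold both an E-box and an E2F site.

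The values are log2 signals after GCRMA, and those under 4 were treated as background. This held for 55.2% to 56.9% of probe sets on each array. Arrays of 1 group correlated with each other at 0.972 to 0.990 on average, and none stood apart. A gene was called where limma gave an adjusted p under 0.01 and at least a 2-fold change. Markers were checked for the labelled stages. The 7 pluripotent cell markers averaged 11.67 to 12.15 on the log2 scale over the day 0 arrays, 9.55 to 10.53 at day 2, 9.07 to 9.33 after 8 h of RA, 5.48 to 6.58 at day 3, 4.68 to 5.16 at day 4 and 4.65 to 4.84 at day 7. Motor neuron markers were highest at day 7, at 5.69 to 6.68, although Chat and Slc5a7 were under the background level there. Feeder fibroblast markers were on average highest at day 0, at 4.39 to 5.97, as Col1a1, Col1a2 and Col3a1 were. Dcn was highest at day 4 (5.28 against 4.42 at day 0) and Thy1 at day 2 (6.52 against 5.88 at day 0). Lum and Postn stayed under the background level in every group mean. Of the gonad soma markers, Amh, Nr5a1 and Foxl2 stayed under the background level in every group mean. Wt1 had means of 7.19 at day 0, 9.39 at day 2, 10.24 after 8 h of RA, 5.63 at day 3, 2.98 at day 4 and 2.25 at day 7, and Sox9 had means of 7.41, 9.75 and 10.18 at days 3, 4 and 7. In these bulk samples, fewer cells of a type and less RNA per cell cannot be told apart.

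After 8 h of RA, Stra8 and Rec8 were higher than in day 2 embryoid bodies. From ES cells to day 2 their log2 fold changes had been 0.31 (SE 0.43) and 0.19 (SE 0.33), and neither was called. The Stra8 probe set (1420568_at) read 11.36 and 11.16 on the RA arrays, against 5.23, 5.55, 6.84 and 5.81 on the day 2 arrays. Both RA arrays lay far above all 4 day 2 arrays, of which replicate 3 was the highest. The difference was 42.2-fold (log2 fold change 5.40, SE 0.48, adjusted p = 9.2e-05). Rec8 (1419147_at) read 9.30 and 9.59 on the RA arrays, against 7.18, 6.75, 7.28 and 6.34 on the day 2 arrays. Again the groups did not overlap, with the day 2 arrays within 1 log2 unit of each other. The difference was 5.89-fold (log2 fold change 2.56, SE 0.38, adjusted p = 0.0074). With these, 2 of the 8 genes were called, both higher, where 0.434% of all genes tested were called in either direction and 0.363% higher. Rec8 was no longer called when day 2 replicate 1, 2 or 4 or an RA array was left out, with adjusted p of 0.015 to 0.053 in those fits. It was also lost with the replicate number as a block over all arrays (adjusted p = 0.015) and after quantile normalization (adjusted p = 0.011). Stra8 kept its call in all 6 fits that left out 1 array, with adjusted p of 5.1e-05 to 0.0017, but neither gene was called in a fit of the 6 arrays of the 2 groups alone (adjusted p = 0.12 for Stra8 and 0.24 for Rec8).

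The other 6 genes did not pass the test at 8 h, and 1 of them, Sycp1, had an unadjusted p under 0.05. Sycp1 (1427291_at) read 6.56 and 6.80 on the RA arrays, against 5.73, 5.88, 5.73 and 5.40 on the day 2 arrays. Its groups did not overlap, but the log2 fold change of 0.99 (SE 0.43) had an adjusted p of 1. Dazl read 6.34 and 6.33 on the RA arrays, against 6.14, 6.39, 6.11 and 5.64 on the day 2 arrays, a log2 fold change of 0.27 (SE 0.51). Ddx4 and Mael had log2 fold changes of 0.27 (SE 0.50) and 0.42 (SE 0.51), and the RA and day 2 arrays overlapped for each of these 3 genes. Dppa3 was lower on the RA arrays, at 7.41 and 8.15, against 9.06, 8.51, 7.87 and 8.82 on the day 2 arrays (log2 fold change -0.78, SE 0.68). The RA arrays of Sycp3 were far apart, at 8.84 and 6.64, so that its mean difference of 0.11 (SE 0.55) became -0.99 or 1.21 when 1 of them was left out. The median log2 fold change of the 8 genes was 0.35, against 0.00 over all genes.

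**Figure D2:**
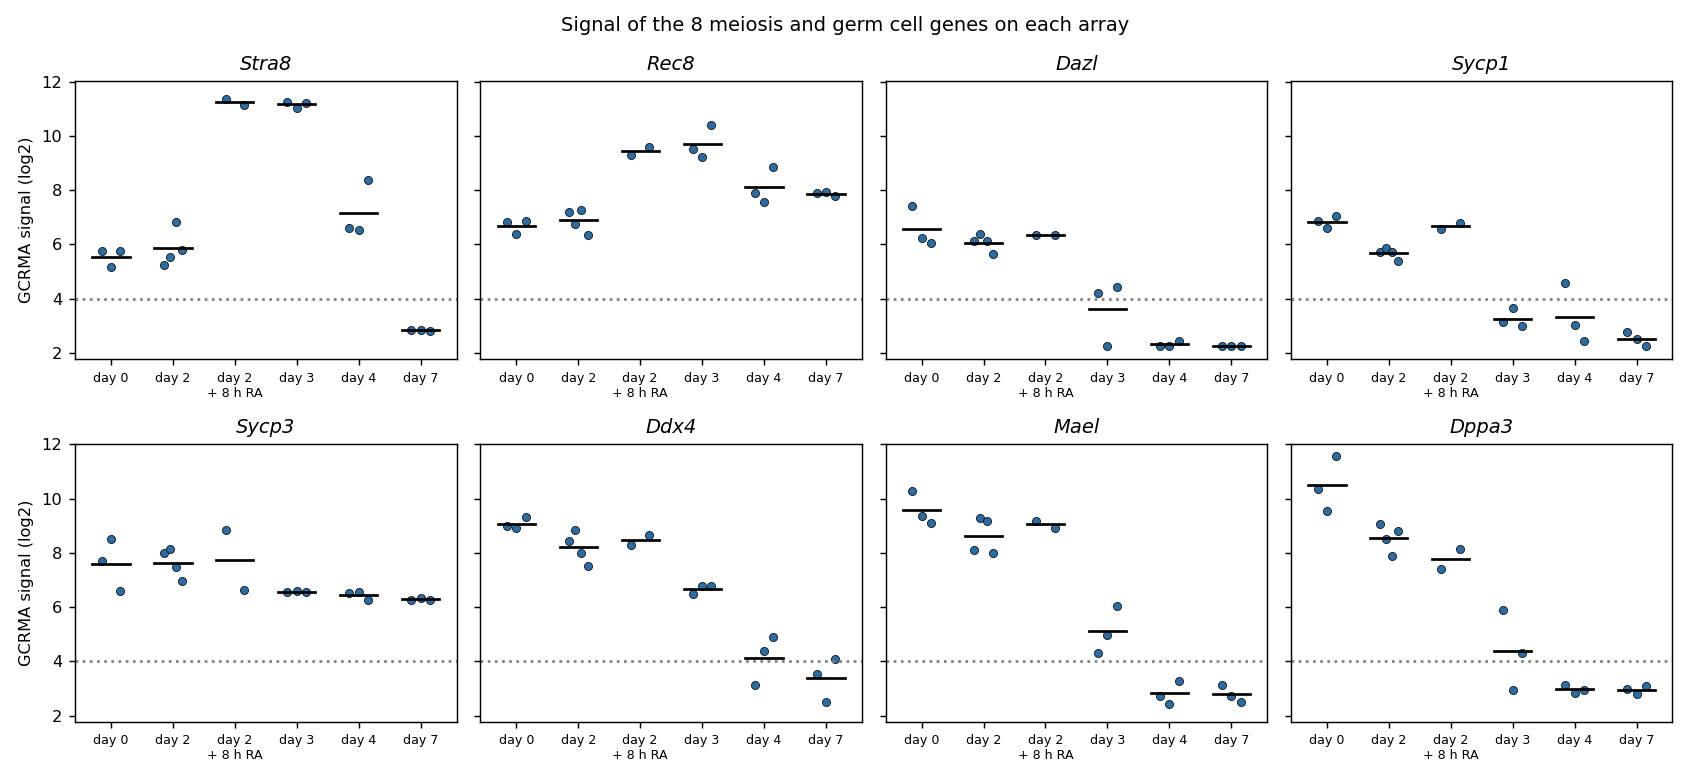
Log2 GCRMA signal of the 8 genes on each of the 18 arrays by stage, on the probe set with the highest mean. Points are arrays, bars are group means and the dotted line is the background level of 4. Stra8 is at 11.16 to 11.36 on the RA arrays and at 11.03 to 11.24 at day 3, and at 2.82 to 2.85 at day 7.

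The rise of Stra8 was transient. It still read 11.24, 11.03 and 11.23 at day 3, against 11.36 and 11.16 after 8 h of RA, with overlapping arrays and a log2 fold change of -0.09 (SE 0.51). At day 4 it read 6.59, 6.54 and 8.38, which was 16-fold lower than at day 3 (log2 fold change -4.00, SE 0.46, adjusted p = 4.3e-04). At day 7 it read 2.85, 2.85 and 2.82, under the background level on every array. The signal at day 7 was therefore at least 8.99-fold lower than at day 4 (log2 fold change -4.33, adjusted p = 1.5e-05) and at least 2.94-fold lower than in ES cells, where it read 5.76, 5.16 and 5.74 (log2 fold change -2.71, adjusted p = 4.1e-04). Each such bound sets the mean of the dim group to the background level, because values under it have no order. With all values under 4 raised to 4, the difference between day 7 and day 0 was -1.55 and was not called (adjusted p = 0.024). Within its own probe set, Stra8 was thus highest after 8 h of RA and at day 3, which overlapped, followed by day 4, day 2 and day 0. Day 4 overlapped day 2 through day 2 replicate 3, day 2 overlapped day 0, and day 7 lay below all others.

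Rec8 was also higher at day 3, and at day 7 it lay above the ES cell arrays without passing the test. It read 9.53, 9.23 and 10.40 at day 3, where it was 7.13-fold higher than at day 2 (log2 fold change 2.83, SE 0.33, adjusted p = 1.3e-04), and overlapped the RA arrays (log2 fold change 0.28, SE 0.40). At day 4 it read 7.90, 7.56 and 8.84, and at day 7 it read 7.89, 7.94 and 7.78. The day 4 arrays lay below those of day 3 without passing the test (log2 fold change -1.62, SE 0.36, adjusted p = 0.044), and replicate 3 was the highest on both days. Without day 4 replicate 3 the difference was called (log2 fold change -1.99, adjusted p = 0.0086). The day 7 arrays overlapped those of day 4 (log2 fold change -0.23, SE 0.36) and lay above every ES cell array, which read 6.81, 6.39 and 6.88. That last difference of 1.18 (SE 0.36, 2.26-fold) had an adjusted p of 0.023. With 0.05 as the threshold it passed, as it did in the fit of the arrays of days 7 and 0 alone (adjusted p = 0.0093).

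Dppa3, Mael, Dazl, Sycp1 and Ddx4 had signal in ES cells and group means under the background level by day 7. In ES cells Dppa3 (1424295_at) read 10.36, 9.54 and 11.56, Mael (1436837_at) 10.29, 9.36 and 9.10, and Ddx4 (1427242_at) 8.98, 8.91 and 9.31. Sycp1 read 6.85, 6.59 and 7.06, and the brighter probe set of Dazl (1419542_at) 7.41, 6.23 and 6.05. The second probe set of Dazl (1449502_at) stayed at 2.29 to 2.89 on every array and is not used further. At day 2 none of the 8 genes was called against ES cells, where 4.47% of all genes were, although limma gave an unadjusted p under 0.05 for 2 of them. These were Sycp1, at -1.15 (SE 0.38, adjusted p = 0.12), and Dppa3, at -1.92 (SE 0.60, adjusted p = 0.093), whose day 2 arrays lay below all ES cell arrays. Raising values under 4 to 4 brought a call for Sycp1 (adjusted p = 5.9e-04), and no other alternative brought a call in this comparison.

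Between day 2 and day 3, after RA and the hedgehog agonist were added, 4 genes fell and 2 rose. This made 6 of 8 called, where 7.71% of all genes were called, 3.91% higher and 3.8% lower. Dppa3 read 5.90, 2.94 and 4.32 at day 3, and was lower than at day 2 (log2 fold change -4.18, SE 0.60, adjusted p = 5.8e-04), by a difference of -4.94 without day 3 replicate 1 and -3.46 without day 3 replicate 2. Mael read 4.30, 4.97 and 6.06 at day 3, against 8.10, 9.29, 9.16 and 7.98 at day 2. It was 11.5-fold lower (log2 fold change -3.52, SE 0.45, adjusted p = 2.5e-04), with every day 3 array below every day 2 array. Sycp1 was under the background level on all 3 day 3 arrays, at 3.14, 3.66 and 3.00, and at least 3.22-fold lower than at day 2 (log2 fold change -2.42, adjusted p = 0.0011). Dazl read 4.22, 2.25 and 4.44 and was lower (log2 fold change -2.44, SE 0.45, adjusted p = 0.0038). The difference for Dazl was -1.85 with values under 4 raised to 4 and -1.74 without day 3 replicate 2, and it was called in both fits. For Dazl and Dppa3 alike, day 3 replicate 2 was under the background level and the other 2 day 3 arrays were above it. Each SE pools the spread of all 6 groups. Standard deviations for Dazl were 1.21 at day 3, 0.11 at day 4 and 0.00 at day 7, and for Dppa3 1.48, 0.15 and 0.15. At days 4 and 7 every array of these genes was under the background level. The call of Dazl was lost without day 2 replicate 1, 2 or 3 (adjusted p of 0.011 to 0.012) and with the replicate number as a block over all arrays (adjusted p = 0.012). In the limma fit of days 2 and 3 alone, Stra8 and Sycp1 kept their calls (adjusted p = 0.0029 and 0.0037). Rec8, Mael, Dppa3 and Dazl lost theirs there (adjusted p = 0.016, 0.029, 0.04 and 0.093). Same-numbered arrays of days 2 and 3 deviated alike. With that number as a block, a fit of those arrays alone called none of the 6 (adjusted p of 0.06 to 0.28) and 0 of all genes. Stra8 and Rec8 were the genes that rose, Stra8 by 5.31 on the log2 scale (SE 0.43, adjusted p = 4.4e-06).

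The fall was seen between 8 h of RA and day 3 as well. Against the RA arrays, Sycp1 was at least 6.4-fold lower at day 3 (log2 fold change -3.41, SE 0.45, adjusted p = 5.8e-04) and Mael was 15.4-fold lower (log2 fold change -3.94, SE 0.54, adjusted p = 7.5e-04), the RA arrays of Mael reading 9.18 and 8.92. These 2 of 8 were called, both lower, where 4.49% of all genes were called and 2.8% lower. Without RA replicate 1 the call of Mael was lost (adjusted p = 0.013) and the count of all genes called was 395 in place of 817. Dazl missed the threshold narrowly (log2 fold change -2.70, SE 0.54, adjusted p = 0.0102), as did Dppa3 (log2 fold change -3.39, SE 0.71, adjusted p = 0.014). Each was called under several of the alternatives, among them the fit without dim probe sets (adjusted p = 0.0027 for Dazl and 0.0036 for Dppa3). Without RA replicate 1 or 3, the adjusted p was 0.086 or 0.058 for Dazl and 0.061 or 0.11 for Dppa3. In the fit of the 2 groups alone, where 0 of the 8 genes were called, it was 0.3 for Dazl, 0.31 for Dppa3, 0.036 for Sycp1 and 0.11 for Mael. The day 3 arrays of all these 4 genes lay below both RA arrays, which is a description only, as the share of all genes with such separation is not given here. The comparisons with day 2 and with 8 h of RA share the day 3 arrays, and are not independent of each other.

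Ddx4 was still above the background level on every day 3 array. It read 8.45, 8.86, 7.98 and 7.51 at day 2, 8.28 and 8.67 after 8 h of RA, 6.49, 6.77 and 6.77 at day 3, 3.12, 4.38 and 4.90 at day 4, and 3.53, 2.52 and 4.09 at day 7. Each day 3 array lay below all arrays of day 2 and of 8 h of RA without passing the test (against day 2, log2 fold change -1.52, SE 0.44, adjusted p = 0.054), and each day 4 array lay below all of day 3 (log2 fold change -2.55, SE 0.47, adjusted p = 0.016). Deviations of same-numbered arrays were also alike between days 3 and 4. With that number as a block over all arrays, the Ddx4 difference from day 3 to day 4 was called (adjusted p = 0.0095). With the block on the arrays of days 3 and 4 alone it was not (adjusted p = 0.27). Among the other alternatives, it was called without dim probe sets (adjusted p = 0.0036) and with values under 4 raised to 4 (adjusted p = 0.0015). After quantile normalization it was not (adjusted p = 0.023). Raised values also brought a call for Ddx4 at day 3 against day 2 (adjusted p = 0.0045). At day 4 Mael read 2.74, 2.44 and 3.28, and Dazl and Dppa3 were likewise under the background level on every array, whereas Sycp1 read 4.56, 3.03 and 2.43. Of the log2 distance between day 0 and day 7, the mean of day 3 had covered 42% for Ddx4, 65.9% for Mael, 67.7% for Dazl, 81% for Dppa3 and 82.5% for Sycp1. These shares depend on how low a dim probe set can read, and the differences among the genes were not tested. The single gene of the 8 called between day 3 and day 4 was Stra8, where 1.42% of all genes were called and 0.792% lower, and it was again the single one between day 4 and day 7, where 19% were and 8.17% lower. A fit limited to the arrays of the 2 stages called none of the 8 in either comparison, and with the replicate block in days 3 and 4 alone Stra8 had an adjusted p of 0.24.

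At day 7 against ES cells 6 of the 8 genes were called, all lower, where 33.1% of all genes were called and 16.4% lower. Dppa3 was at least 89.7-fold lower (log2 fold change -7.53, SE 0.64, adjusted p = 8.9e-07), reading 2.97, 2.80 and 3.10 at day 7. Mael was at least 48-fold lower (log2 fold change -6.79, adjusted p = 1.7e-07). Ddx4 was also lower (log2 fold change -5.69, SE 0.47, adjusted p = 7.6e-07), with 2 of the 3 day 7 arrays under the background level, and its difference was -5.04 with values under 4 raised to 4. For Sycp1 and Dazl the bounds were at least 7.13-fold and at least 5.91-fold lower (adjusted p = 2.2e-06 and 1.1e-05). These 5 genes kept their calls in each of the 6 fits that left out 1 array, and in the fit of days 7 and 0 alone, with adjusted p of at most 0.0038. Pluripotent cell markers moved over the same stages (4.65 to 4.84 at day 7 against 11.67 to 12.15 at day 0, with group means of Esrrb and Tdgf1 under the background level from day 3 and of Pou5f1 and Zfp42 from day 4, and Sox2 at 11.68 at day 7), and feeder fibroblast markers were at 3.04 to 3.13 at day 7 against 4.39 to 5.97 at day 0. Of the feeder fibroblast markers, Dcn was at 4.68 at day 7 against 4.42 at day 0. The part of either set of markers in these falls was not tested. The median log2 fold change of the 8 genes was -4.33, or -2.70 with values under 4 raised to 4, against 0.00 over all genes.

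**Figure D3:**
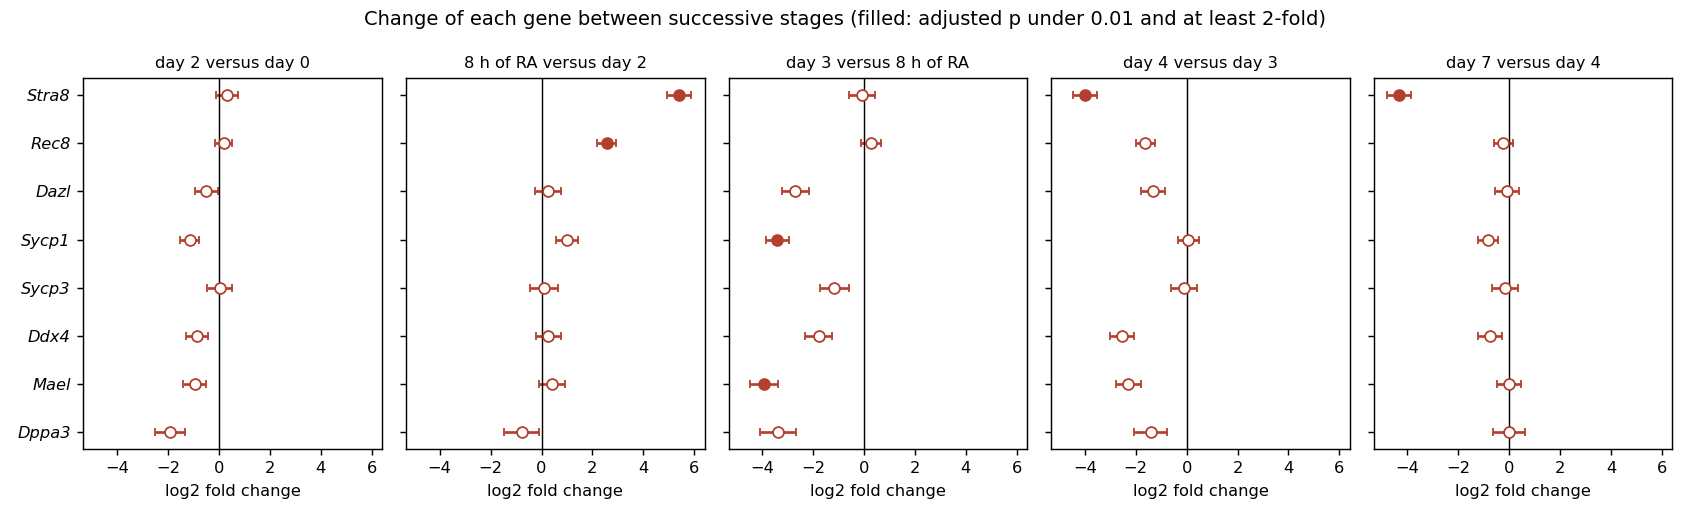
Log2 fold change of each gene between successive stages, later stage minus earlier. Bars are limma's standard errors, and filled points passed an adjusted p under 0.01 and 2-fold. Stra8 is filled at 5.40 after 8 h of RA, at -4.00 from day 3 to day 4 and at -4.33 from day 4 to day 7.

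Sycp3 (1449534_at) was not called in any comparison. It read 7.70, 8.50 and 6.61 in ES cells, 7.98, 8.13, 7.49 and 6.95 at day 2, and lay between 6.26 and 6.58 on all 9 arrays of days 3, 4 and 7. Its early arrays were thus spread and its later arrays almost level, at a signal well above the background level. At day 7 it was lower than on every ES cell array, by 1.32 (SE 0.52, adjusted p = 0.08). In the annotation the Sycp3 locus overlaps that of Chpt1 and the Sycp1 locus that of Gm33866, and the probe sequences were not used here.

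Over the 18 arrays, Dazl, Sycp1, Ddx4, Mael and Dppa3 correlated with each other at Pearson's r of 0.84 to 0.97. Stra8 correlated with these 5 at 0.00 to 0.33 and with Rec8 at 0.76. The arrays fall into 6 stages, so these values mainly describe stage means. Among 10326 genes that reached a log2 signal of 6 in a group mean, those most like Stra8 were Rbks (r = 0.902), Clic6 (0.899) and Bhlha15 (0.893). Nrip1, a nuclear receptor corepressor, was the most like Rec8 (0.913), with stage means of 8.51 at day 0, 8.28 at day 2, 11.26 after 8 h of RA, 11.28 at day 3, 10.64 at day 4 and 9.55 at day 7. Genes most like Dazl were Stat6 (0.987), Acan (0.978) and Dppa4 (0.975), and Stat6 was also among the 3 most like Mael (0.981). Zfp979 was the most like Ddx4 (0.990). Dppa3 was most like Ooep (0.986), Zfp936 (0.986) and Zfp42 (0.982), of which Zfp42 (Rex1) is a marker of naive ES cells. Sycp1 was most like Tmem125 (0.957), Epha2 (0.949) and Tdgf1 (0.949), and Sycp3 most like Gm4924 (0.868).

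The rest of the germline program was read from lists of 69 further genes, of which 62 were measured and 23 lay under the background level in every group mean. After 8 h of RA 4 of the 62 were called, all higher, where 0.434% of all genes were called and 0.363% higher. Of these 4, 2 came from the 5 measured genes of the list of meiotic entry and RA gatekeepers. That list includes RA breakdown and RA receptor genes and was chosen with earlier results known. The count is therefore not a measure of a germline response. Cyp26a1, which breaks RA down, was at 11.78 with RA against 5.11 at day 2 (log2 fold change 6.67, SE 0.60, adjusted p = 9.3e-05), and Rarb, an RA receptor, was at 7.31 against 3.79 (adjusted p = 5.6e-04), with 2 of the 4 day 2 arrays under the background level. Both are well-known targets of RA in many cells. Kit, the stem cell factor receptor of primordial germ cells, was at 8.27 against 5.51 and passed the threshold narrowly (log2 fold change 2.76, SE 0.42, adjusted p = 0.00988). Gtsf1, a piRNA pathway gene, was called at group means of 3.85 with RA and 2.65 at day 2, both under the background level (adjusted p = 0.00977). None of the 7 further genes of the synaptonemal complex and chromosome axis, and none of the 14 of meiotic recombination, was called by limma at 8 h, and 1 and 0 of them had an unadjusted p under 0.05. Spo11, which makes the meiotic double-strand breaks, had group means of 2.24 to 2.28 at all stages, and Msh4 stayed at 2.24, close to the lowest value deposited. Sycp2, Syce3, Tex12, Hormad2, Prdm9 and Meiob were also under the background level in every group mean.

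At day 3 more of these genes were lower than higher. Against 8 h of RA 12 of the 62 were lower and 1 was higher, where 4.49% of all genes were called and 2.8% lower. Against day 2 10 were lower and 4 were higher, Zbtb16 with Cyp26a1, Rarb and Stra6, where 3.8% of all genes were lower and 3.91% higher. The last 3 belong to the list of meiotic entry and RA gatekeepers. Among the partners of Sycp1 and Sycp3, Syce1, a central element protein of the synaptonemal complex, had a mean of 3.80 at day 3 against 6.09 at day 2 (adjusted p = 0.0048). Hormad1, which binds unsynapsed chromosome axes, was at 3.52 against 6.20 (adjusted p = 0.0044). For each of them 2 of the 3 day 3 arrays were under the background level. Syce2 fell to 10.63 at day 3 against 11.66 at day 2 (log2 fold change -1.03, adjusted p = 0.0088). In the piRNA pathway of Mael and Ddx4, Tdrd12 was at 4.71 against 8.36 (log2 fold change -3.65, adjusted p = 1.9e-05), and Piwil2 at 5.20 against 8.31 (log2 fold change -3.11, adjusted p = 4.3e-04). Beside Dppa3, Dppa4 was at 6.32 against 10.83 (log2 fold change -4.51, adjusted p = 5.0e-06).

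From day 0 to day 2, where none of the 8 genes was called, 10 of the 62 were lower and 1 was higher, where 4.47% of all genes were called. Prdm14, a regulator of primordial germ cells and naive ES cells, was under the background level on every day 2 array, against a mean of 8.34 at day 0, and so at least 20.3-fold lower (adjusted p = 5.4e-08). Prdm1 was at 3.15 against 6.53 (adjusted p = 4.6e-04), with 3 of the 4 day 2 arrays under the background level, and Tex14 at 4.11 against 7.39 (adjusted p = 6.5e-05), with 1 of the 4. From day 3 to day 4, 3 of the 62 were lower and 1 was higher, where 1.42% of all genes were called and 0.792% lower. Lower were Ifitm1 (log2 fold change -5.03), Dppa5a (-3.40) and Dppa4 (at least 4.98-fold). The gene that rose was Cyp26b1, the RA-degrading enzyme that keeps germ cells of the fetal testis out of meiosis. Cyp26b1 had a mean of 9.17 at day 4 against 3.95 at day 3 (adjusted p = 3.7e-04), where 1 of the 3 day 3 arrays was under the background level. It was lower at day 7, at 3.60 against 9.17 at day 4 (adjusted p = 1.4e-05), with 2 of the 3 day 7 arrays under the background level. Cyp26a1 was under it on all 3 and at least 111-fold lower than at day 4, where its mean was 10.79 (adjusted p = 1.0e-06). At day 7 against ES cells 28 of the 62 were lower and 4 were higher, where 33.1% of all genes were called and 16.4% lower. All 9 of the further primordial germ cell and early embryo genes were among those lower.

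**Figure D4:**
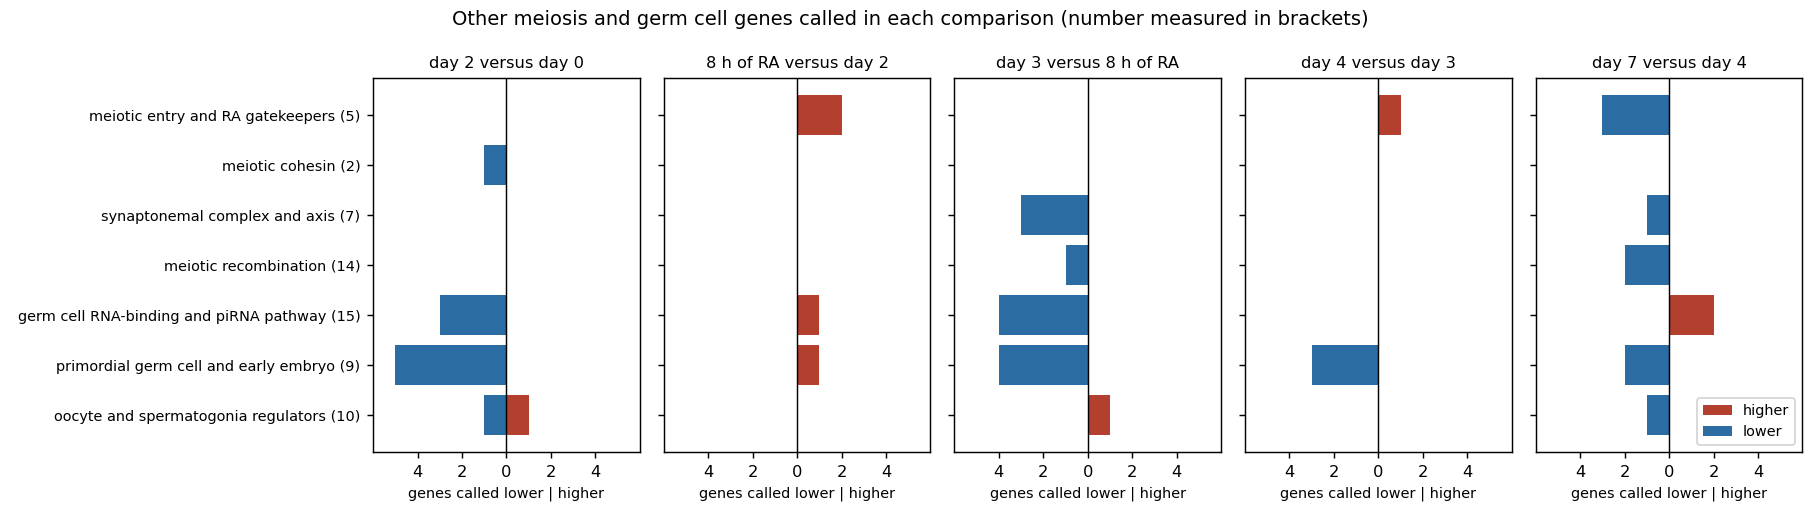
Number of other meiosis and germ cell genes called lower (left of 0) or higher (right of 0) between successive stages, by list, with the number measured in brackets. The early embryo list has 5 of 9 genes lower at day 2 against day 0 and 4 of 9 lower at day 3 against 8 h of RA, and the recombination list has 1 of 14 lower at day 3.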

How the data were processed

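Signal was read on 18 arrays, grouped by the condition in the sample labels. Values were deposited on the log2 scale, after the authors had applied GCRMA to the arrays together in affylmGUI (version not given in the sources used here). GCRMA sets most dim probe sets near a common lowest value, so differences under a log2 signal of 4 carry little information. Without 64 control probe sets, 45037 were tested. limma 3.58.1 in R 4.3.3 was fitted to 6 group means over all arrays (12 residual degrees of freedom), with Benjamini-Hochberg adjustment over all probe sets. A gene was called if at least 1 probe set passed an adjusted p under 0.01 and 2-fold, the thresholds in the study's methods, and was valued on the probe set with the highest mean. The script was tested on simulated data. Arrays are described as biological replicates, and their number limits the precision. Whether the arrays of 2 groups overlap is stated as a description, without the share over all genes.

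The members and lists were chosen with earlier results of these data known. Named are the 8 genes and, per list, up to 4 called genes with the largest change. Replicate numbers come from the labels, and deviations from group means of same-numbered arrays correlated at 0.482, 0.345 and 0.476 between days 2 and 3 and at 0.641, 0.422 and 0.746 between days 3 and 4. The other pairs were not alike in this way. Correlations were -0.224 and -0.449 between 8 h of RA and day 2, and 0.1 and 0.212 between day 3 and 8 h of RA. Between day 2 and day 0 they were 0.214, -0.203 and -0.129. The labels do not say that a number marks a shared culture. The main values come from the fit without a replicate block. That block was run only among the alternatives, over all arrays and in each pair of groups that shared at least 2 numbers. Alternatives were dim probe sets left out, trend with robust moderation, values raised to 4, quantile normalization, arrays of the 2 groups only, the replicate block, averaged probe sets, an adjusted p under 0.05 and each array left out. Figures were drawn in Python 3.11.15 with matplotlib 3.10.9.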

Additional observations from a re-analysis of the deposited data

How the results depend on the processing

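Of 832 values of single genes under the alternatives, 770 stayed on their side of the threshold (20 of these, none of them called, had the opposite sign), 35 were no longer called, 27 were newly called and 0 of the called values reversed. Counts of the 8 genes called moved more. For 8 h of RA against day 2, with 2 called, raised values (those under 4 set to 4), quantile normalization and the replicate block over all arrays each left 1, the fit of the 2 groups alone and its replicate block left 0, and leaving out 1 array left 1 to 2. For day 2 against day 0, with 0 called, raised values gave 1. For day 3 against 8 h of RA, with 2 called, an adjusted p under 0.05, dim probe sets left out, raised values and averaged probe sets each gave 4, the 2 groups alone and their replicate block gave 0, and leaving out 1 array gave 1 to 3. For day 3 against day 2, with 6 called, the 2 groups alone gave 2 and their replicate block 0. For day 4 against day 3, with 1 called, an adjusted p under 0.05 gave 4, dim probe sets left out 3, and raised values, averaged probe sets and the replicate block over all arrays 2 each, while the 2 groups alone and their replicate block gave 0 and leaving out 1 array gave 1 to 3. For day 7 against day 4, with 1 called, the 2 groups alone gave 0. The count for day 7 against day 0 stayed between 5 and 7. The fits of 2 groups have fewer arrays to estimate the spread, and their replicate block called 0 of all genes in each of the 5 comparisons that shared at least 2 replicate numbers. The 2 comparisons with day 7 share 1 number with the other stage and had no such fit. The causes of the changes in count, those in the 2-group fits included, were not tested.

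Over all genes, the fit of the 2 groups alone called 8 in place of 79 for 8 h of RA against day 2, 66 in place of 814 for day 2 against day 0, 96 in place of 817 for day 3 against 8 h of RA, 651 in place of 1402 for day 3 against day 2, 17 in place of 258 for day 4 against day 3, 1291 in place of 3456 for day 7 against day 4 and 3427 in place of 6022 for day 7 against day 0. The replicate block over all arrays gave 49 for 8 h of RA against day 2. An adjusted p under 0.05 gave 1348 for day 2 against day 0, 1370 for day 3 against 8 h of RA and 441 for day 4 against day 3. Without day 3 replicate 1 or day 4 replicate 2, the count for day 4 against day 3 was 168 or 171. Dim signal limits the late stages most, since Dazl, Mael and Dppa3 were under the background level on every array of days 4 and 7.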

Other observations

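Regulators that are known to silence germline genes, or to oppose that silencing, were read from a further list of 16 genes, all measured. None was called after 8 h of RA by limma, and 2 had an unadjusted p under 0.05. At day 3 against day 2, 4 were called, all lower, where 7.71% of all genes were called and 3.8% lower. Dnmt3l, a cofactor of the de novo DNA methyltransferases, was under the background level on every day 3 array, against a mean of 8.53 at day 2, and so at least 23.1-fold lower (adjusted p = 3.4e-07). On the probe set with the highest mean, Dnmt3b was at 10.75 at day 3 against 12.91 at day 2 (log2 fold change -2.15, SE 0.24, adjusted p = 9.3e-05), and Dnmt3a at 11.80 against 13.49 (log2 fold change -1.70, SE 0.18, adjusted p = 5.9e-05). The most changed probe set read 6.45 against 11.57 for Dnmt3b and 6.84 against 10.51 for Dnmt3a, so the probe sets of each gene disagree in size. Tet1, which oxidizes methylated cytosine and so acts against that silencing, was called through 1 of its 4 probe sets (adjusted p = 0.0093). Its probe set with the highest mean was at 9.06 against 10.60 and did not pass (log2 fold change -1.54, SE 0.37, adjusted p = 0.021). At day 7 against day 4, 3 of the 16 were called, all lower, where 19% of all genes were called and 8.17% lower. Dnmt3b (log2 fold change -4.19) and Uhrf1 (-2.36 on the probe set with the highest mean) were 2 of them. Pcgf6, a subunit of the complex known to bind E-box promoters of germline genes, was at 7.28 against 8.82 (log2 fold change -1.53, SE 0.25, adjusted p = 6.3e-04). The other 13, among them Mga, Max, E2f6 and L3mbtl2, did not pass. A link to the 8 genes was not tested.

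Ddx25 and Tdrd7, of the germ cell RNA-binding and piRNA list, were called higher at day 7 against day 4. Ddx25, a helicase of spermatids in mice, had a mean of 8.33 at day 7 against 6.07 at day 4 (log2 fold change 2.27, SE 0.44, adjusted p = 0.0022), and Tdrd7, with a mean of 5.43 at day 7 and every day 4 array under the background level, was at least 2.7-fold higher (adjusted p = 0.0019). They were the 2 called higher among the 62 further genes in that comparison, where 9 were lower. Of all 18193 genes, 19% were called, 1977 of them higher. Within their own list of 15 measured germ cell RNA-binding and piRNA genes, 0 were called lower, where 8.17% of all genes were lower. These counts are not read as a trait of the lists. Zbtb16, a factor of spermatogonial stem cells that is also expressed in neural progenitors, was at 9.61 at day 3 against 4.04 at day 2 on the probe set with the highest mean (log2 fold change 5.57, SE 0.30, adjusted p = 1.1e-07), and at 5.71 at day 7 against 9.38 at day 4 (log2 fold change -3.67, SE 0.32, adjusted p = 2.3e-06). For both comparisons 2 of its 3 probe sets were called.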
